A study of Mus musculus with 27 samples.

Results

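The organic ion transporters of the SLC22, SLCO and SLC47 families were followed across freshly isolated mouse hepatocytes, hepatocyte organoids (HepOrgs) and periportal assembloids. The members are all genes of the count table whose names are Slc22a, Slco or Slc47a followed by a family number, 41 in all, without Slco1b2 and Slco1a1, which leaves 39 of the 21850 genes. By their best known substrates they comprise 3 organic cation transporters, 5 carnitine and zwitterion transporters (Slc22a4, Slc22a5, Slc22a15, Slc22a16, Slc22a21), 13 organic anion transporters of the Slc22 family, 4 other Slc22 genes (Slc22a14, Slc22a17, Slc22a18, Slc22a23), 12 organic anion transporting polypeptides (OATPs, the Slco genes) and 2 multidrug and toxin extrusion proteins (MATEs, Slc47a1 and Slc47a2).

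Poly(A) RNA of 27 libraries was sequenced with a full-length protocol, with 3 libraries in each of 9 conditions. All material came from the liver of mice of the C57BL/6 background. Fresh hepatocytes were wild type by title, although the genotype field of replicate 3 reads MDR2-het, a heterozygous state of Abcb4. That library had 127 counts of Abcb4 scaled to library size (CPM, TMM-normalised) against 299 and 234 in replicates 1 and 2. The 17 partner transporters described below, Abcb4 among them, summed to 2503 CPM there against 3134 and 3075. The level of 1 gene does not settle the genotype, which was not tested. HepOrgs were wild-type primary hepatocytes grown to passage 2 in HM-Wnt, an expansion medium with Wnt and RSPO1 conditioned media, EGF, HGF, FGF7, FGF10, gastrin, nicotinamide, CHIR9902, A83-01 and a ROCK inhibitor, and they were either kept there or switched to MM, a minimal medium with only Wnt conditioned medium and ROCK inhibitor added to the same base, for 7 or 14 days. Assembloids are labelled wild type, although by the study's methods the cholangiocytes generally came from mice with a nuclear tdTomato reporter and the sorted SCA1+ portal mesenchymal cells from PDGFRα-H2B-GFP reporter mice. They joined 10 HepOrgs with 1000 cholangiocytes and either 250 portal mesenchymal cells (homeostatic) or 2500 (fibrotic-like), and were kept in MM for 7 or 18 days, written here as 1 and 2.5 weeks. The labels do not say whether the 3 libraries of a condition came from separate mice or cultures, so p-values measure only the spread between these libraries.

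These transporters carry drugs, toxins, hormones, bile acid conjugates and nutrients across the plasma membrane. In the liver, uptake carriers of the SLC22 and OATP families sit on the sinusoidal side of the hepatocyte, facing the blood, and pass their substrates to metabolising enzymes, while MATE1 and ATP-driven pumps export substrates or their products into the bile canaliculus. OAT2, encoded by Slc22a7, takes up organic anions and nucleotides. Hepatocytes in culture are known to lose many of these carriers.

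The 250 bases upstream of the annotated start of Slc22a7 and Slco4a1 are given first, because these genes mark opposite courses described below. Slc22a7 was high in fresh hepatocytes and all but absent in HepOrgs, and Slco4a1 was under 1 CPM in fresh cells and HepOrgs and higher in fibrotic-like assembloids. Sequences are from the GRCm39 genome, with starts of canonical transcripts from the GENCODE annotation. They run 5′ to 3′ on the strand of the gene, with CpG dinucleotides in capitals. They lie at chr17:46749408-46749657 (minus strand) and chr2:180097734-180097983 (plus strand).
Slc22a7: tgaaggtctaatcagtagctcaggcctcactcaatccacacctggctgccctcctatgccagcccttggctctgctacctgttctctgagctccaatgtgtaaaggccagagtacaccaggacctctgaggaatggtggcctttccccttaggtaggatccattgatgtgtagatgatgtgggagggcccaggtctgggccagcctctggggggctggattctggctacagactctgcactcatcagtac
Slco4a1: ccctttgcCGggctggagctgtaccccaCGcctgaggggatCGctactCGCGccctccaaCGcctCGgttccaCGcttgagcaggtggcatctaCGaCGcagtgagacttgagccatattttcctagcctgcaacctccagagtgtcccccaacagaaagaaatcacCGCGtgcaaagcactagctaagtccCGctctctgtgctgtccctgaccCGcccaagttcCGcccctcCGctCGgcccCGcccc
The window of Slco4a1 held 18 CpG dinucleotides and that of Slc22a7 none. The ratio of observed to expected CpG, from the base composition of the same window, was 0.778 for Slco4a1, higher than in 78.7% of 21616 mouse upstream windows. Over the 39 members the median ratio was 0.298 against 0.476 over all windows, and the median GC content was 49.6% against 53.2%. The 10 members lower in all 4 comparisons with fresh cells, described below, spanned most of this scale, with 0 CpG in Slc22a7, Slc22a30, Slco1a4 and Slc22a18, 1 in Slc22a28, 2 in Slc22a14, 3 in Slco2b1, 10 in Slco2a1, 12 in Slc47a1 and 22 in Slc22a15 (ratio 0.810). Slc22a17, higher in all 4, had 8.

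Within the family of near copies on chromosome 19, Slc22a28 and Slc22a30 are shown for a different reason, which is that both were high in fresh hepatocytes and low in every culture while their upstream windows differ at 6 of 250 bases (97.6% identity, differing bases in capitals). The windows lie at chr19:8109347-8109596 and chr19:8382476-8382725, both on the minus strand.
Slc22a28: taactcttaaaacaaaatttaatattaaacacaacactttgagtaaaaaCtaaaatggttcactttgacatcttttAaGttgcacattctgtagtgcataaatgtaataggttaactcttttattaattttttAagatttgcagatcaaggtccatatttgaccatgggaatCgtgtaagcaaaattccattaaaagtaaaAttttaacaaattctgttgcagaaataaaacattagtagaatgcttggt
Slc22a30: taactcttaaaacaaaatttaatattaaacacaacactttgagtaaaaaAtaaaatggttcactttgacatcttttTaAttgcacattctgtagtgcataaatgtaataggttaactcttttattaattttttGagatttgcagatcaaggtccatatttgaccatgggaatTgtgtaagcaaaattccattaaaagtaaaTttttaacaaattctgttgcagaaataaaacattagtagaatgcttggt
The next closest pair of the same cluster, Slc22a29 and Slc22a30, had 71.2% identity, and Slc22a27 had 46.4% with Slc22a30. Reads that fit several of these copies may have been dropped or assigned to a neighbour, so the values of Slc22a26 to Slc22a30, and of Slco1a4, Slco1a5 and Slco1a6, are uncertain at the level of the single gene. In the 300 bases from 250 before to 50 after the start, the hepatocyte factor motif GTTAAT (a half-site of HNF1) was present on either strand in 4 of 39 members and in 6.93% of 21616 promoters, the E-box CACGTG in 1 member and 7.85%, and the HNF4 core CAAAGTCCA in 0 members and 0.453%. The 4 members with GTTAAT were Slc22a2, Slc22a6, Slc22a29 and Slco5a1, none of which was abundant in any condition.

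Libraries held 30289364 to 65348596 counts assigned to genes, with a median of 43727965. Of the 39 members, 4 had no count in any library (Slc22a6, Slc22a12, Slc22a13 and Slco6c1, known from kidney or testis), another 4 stayed under 10 counts everywhere (Slc22a8, Slc22a16, Slc22a19 and Slc47a2), and 24 reached at least 100 counts in a library. Replicate 2 of the homeostatic assembloids at 1 week stood apart from all other libraries. Its correlation with the other 2 of its group was as low as 0.596, the 9 hepatocyte markers summed to 2338 CPM against 106822 and 52253 in replicates 1 and 3, Cps1 and Arg1 were at 0, and 6 cholangiocyte markers summed to 8648 CPM, within the range of the other assembloids. Each assembloid result is therefore given with and without it. Fresh hepatocytes carried 84260 to 114746 CPM of the hepatocyte markers and 11.8 to 139 CPM of the cholangiocyte markers, and HepOrgs 29315 to 89110 and 3486 to 14971 CPM.

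Levels summed by role are given in CPM per kilobase of annotated exon, the scale on which genes are compared with each other. The organic anion group went from 300 ± 114 (mean ± SD, n = 3) in fresh cells to 4.65 ± 1.14 in HM-Wnt and 9.43 ± 2.65 in MM at 1 week. In the same order the OATPs went from 51.3 ± 8.02 to 2.21 ± 1.19 and 4.29 ± 3.43, and the MATEs from 41.4 ± 10.0 to 0.510 ± 0.131 and 1.77 ± 1.15. The carnitine and zwitterion group was at 6.98 ± 2.79 against 2.82 ± 0.677 and 4.27 ± 0.775. In bulk libraries, fewer hepatocytes and less of a transcript per hepatocyte cannot be told apart.

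The first comparison asks how far HepOrgs keep the transporter set of the cells they were made from. Of the 24 members with enough counts for the test (edgeR's quasi-likelihood test, adjusted p under 0.05, adjusted over 13405 genes), 14 were lower and 2 higher in HM-Wnt HepOrgs at 1 week than in fresh hepatocytes, where 24.8% of all genes tested were lower and 24.9% higher (49.7% in either direction). At 2 weeks in HM-Wnt 12 were lower and 4 higher, against 25.7% and 26.1% of all genes. In MM, 12 were lower and 1 higher at 1 week (21.3% and 21.5% of all genes), and 15 lower and 2 higher at 2 weeks (20.0% and 19.7%, or 39.7% in either direction). The median log2 fold change of the tested members was -1.67, -1.47, -1.07 and -1.08 in this order, while that of all genes lay between -0.0088 and 0.032. All 4 comparisons share the fresh libraries.

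Of the 24 members tested, 10 were lower in all 4 comparisons, as were 14.3% of all 13405 genes. They were Slc22a7, Slc22a28 and Slc22a30 of the organic anion group, the OATPs Slco1a4, Slco2a1 and Slco2b1, the MATE Slc47a1, and Slc22a14, Slc22a15 and Slc22a18. Slc22a28 passed the count filter only through the fresh libraries, and Slc22a17, Slco4a1 and Slco5a1 only through HepOrg libraries. The direction of their calls was thus set by the filter, and they are included in the counts here and above. Slc22a17 was the 1 member higher in all 4, as were 15.1% of all genes. In a fit of all 27 libraries, Slc22a14 was not called in any of the 4 comparisons, and Slc22a15, Slc22a17 and Slco2b1 were not called in MM at either time.

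**Figure D1:**
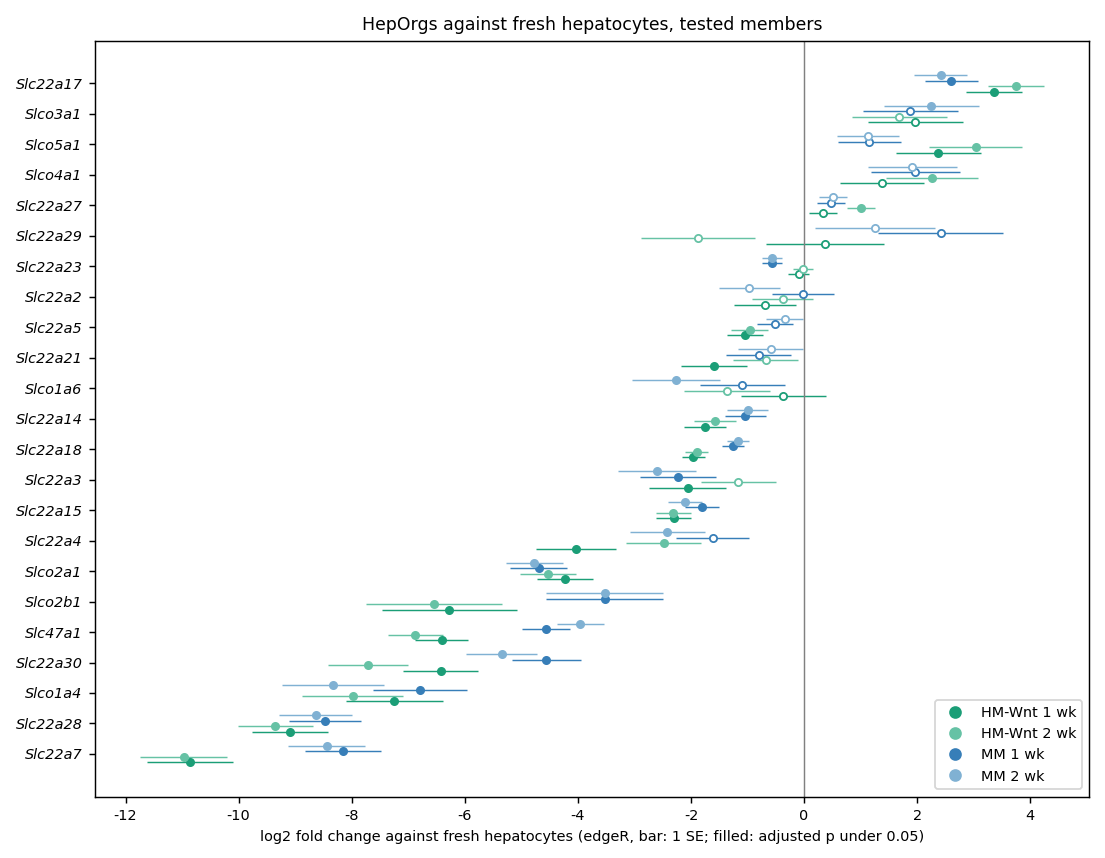
Log2 fold change of tested members in HepOrgs against fresh hepatocytes, from edgeR, with 4 points per gene for HM-Wnt and MM at 1 and 2 weeks. Bars are 1 approximate standard error and filled points have an adjusted p under 0.05. The points run from -10.97 for Slc22a7 in HM-Wnt at 2 weeks to 3.75 for Slc22a17 at the same time and medium.

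Slc22a7 was counted at 387, 253 and 592 CPM in fresh replicates 1 to 3, at 0.0498 to 0.276 CPM over the 6 HM-Wnt libraries, and at 2.02, 1.89 and 0.320 CPM in MM at 1 week and 1.34, 1.38 and 0.700 CPM at 2 weeks. Every HepOrg library lay far below every fresh library, and every MM library lay above every HM-Wnt library. The log2 fold change against fresh cells was -10.86 ± 0.77 (approximate SE, 3 libraries a group) and -10.97 ± 0.77 in HM-Wnt. In MM it was -8.16 ± 0.67 and -8.44 ± 0.68. The adjusted p ran from 2.56e-07 to 1.27e-06 over both media in edgeR's quasi-likelihood test.

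Slc22a30 and Slc22a28 are rodent organic anion transporter genes of a cluster on chromosome 19. Slc22a30 was at 394, 234 and 487 CPM in fresh cells, 5.68, 5.08 and 2.42 in HM-Wnt at 1 week, 2.17, 1.55 and 1.51 at 2 weeks, 19.8, 23.5 and 4.42 in MM at 1 week and 12.5, 10.4 and 4.70 at 2 weeks. All fresh libraries were above all others, and replicate 3 was the lowest of each MM group. Its log2 fold change was -6.43, -7.71, -4.56 and -5.34 (SE 0.60 to 0.70), with edgeR adjusted p from 2.04e-06 to 6.59e-05. Slc22a28 had 1264, 576 and 1411 counts in fresh libraries and at most 3 in any HepOrg library. Against HM-Wnt at 1 week, with 1 count in all, the ratio of rates was 3655 with a counting interval of 655 to 144393, and against HM-Wnt at 2 weeks, with no count, the gene was at least 1353-fold lower by a floor of 3 counts over the group. Both intervals cover counting error only. Slc22a27, of the same cluster, rose in HM-Wnt at 2 weeks alone among the 4 comparisons, from 6.26 to 8.61 CPM in fresh cells to 14.0 to 16.3 CPM (log2 fold change 1.01 ± 0.25, edgeR adjusted p = 0.00475), and its log2 fold change was 0.33, 0.48 and 0.51 in the others, which did not pass.

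Slco1a4 encodes an uptake carrier for bile salts, steroid conjugates and drugs. It was at 149, 58.9 and 38.1 CPM in fresh hepatocytes and at 0 to 1.08 CPM over the 12 HepOrg libraries, without overlap, and its log2 fold change ran from -6.79 ± 0.83 to -8.33 ± 0.91 with edgeR adjusted p from 1.09e-05 to 3.52e-05. Slco2b1, a broadly expressed carrier for sulphated steroids and statins, was at 211, 194 and 226 CPM in fresh cells, 0.303 to 4.74 CPM in HM-Wnt, and 16.0, 37.3 and 1.72 CPM in MM at 1 week and 17.4, 34.3 and 3.61 CPM at 2 weeks. The fresh libraries agreed closely while the MM libraries differed among themselves, with replicate 2 the highest and replicate 3 the lowest at both times. The log2 fold change was -6.28 ± 1.19 and -6.54 ± 1.20 in HM-Wnt (edgeR adjusted p = 0.000776 and 0.000558) and -3.53 ± 1.04 and -3.53 ± 1.03 in MM (edgeR adjusted p = 0.0147 and 0.0155). The MM call at 1 week was lost without replicate 1 of MM (edgeR adjusted p = 0.0513) and that at 2 weeks without replicate 1 or 3 of MM (0.0508 and 0.0506), and both were lost in the fit of all 27 libraries (0.103 and 0.105).

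Slco2a1, the prostaglandin transporter, was at 102, 94.7 and 76.1 CPM in fresh preparations and at 1.90 to 7.20 CPM in HepOrgs, with log2 fold changes of -4.23, -4.53, -4.69 and -4.77 (SE 0.49 to 0.50) and edgeR adjusted p from 9.35e-06 to 1.66e-05. This gene is known from vascular endothelium. The 8 endothelial markers summed to 57.0, 272 and 221 CPM in fresh replicates 1 to 3 and to 0.827 to 13.4 CPM in HepOrgs, and 7 of the 7 tested were lower in all 4 comparisons. Only 3 of the 8 had enough counts for a test among HepOrgs alone. The others tested here passed the count filter only with the fresh libraries, which set the direction of their calls. The 8 immune markers summed to 46.7 to 429 CPM in fresh cells and to 7.76 to 53.5 CPM in HepOrgs. The part of these other cells in the fall of Slco2a1 was not tested.

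MATE1, the product of Slc47a1, is a proton-coupled antiporter that passes organic cations into bile. Slc47a1 was at 125, 185 and 123 CPM in fresh cells, 1.28, 2.16 and 1.69 in HM-Wnt at 1 week, 0.747, 1.35 and 1.51 at 2 weeks, 3.71, 10.8 and 3.94 in MM at 1 week and 9.31, 10.1 and 8.79 at 2 weeks. No 2 of the fresh, HM-Wnt and MM sets of libraries overlapped, with fresh the highest and HM-Wnt the lowest. The log2 fold change against fresh cells was -6.41, -6.87, -4.57 and -3.96 (SE 0.41 to 0.48), with edgeR adjusted p from 2.55e-07 to 1.02e-05.

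Slc22a2, the kidney cation transporter, had 1 to 21 counts in HepOrgs and fresh cells, and Slc22a3, the extraneuronal monoamine transporter, had 62 to 85 counts in fresh cells and 3 to 74 in HepOrgs and was called lower in HM-Wnt at 1 week and in MM at both times. The first call was lost without fresh replicate 2 or HM-Wnt replicate 1 or 2, and that in MM at 1 week without fresh replicate 2 or MM replicate 2 or 3. The model of Slc22a3 overlaps that of Plg, a gene of very high expression in hepatocytes, and the library kit does not mark strand, so its reads cannot be told apart from those of the overlapping gene where both are transcribed.

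**Figure D2:**
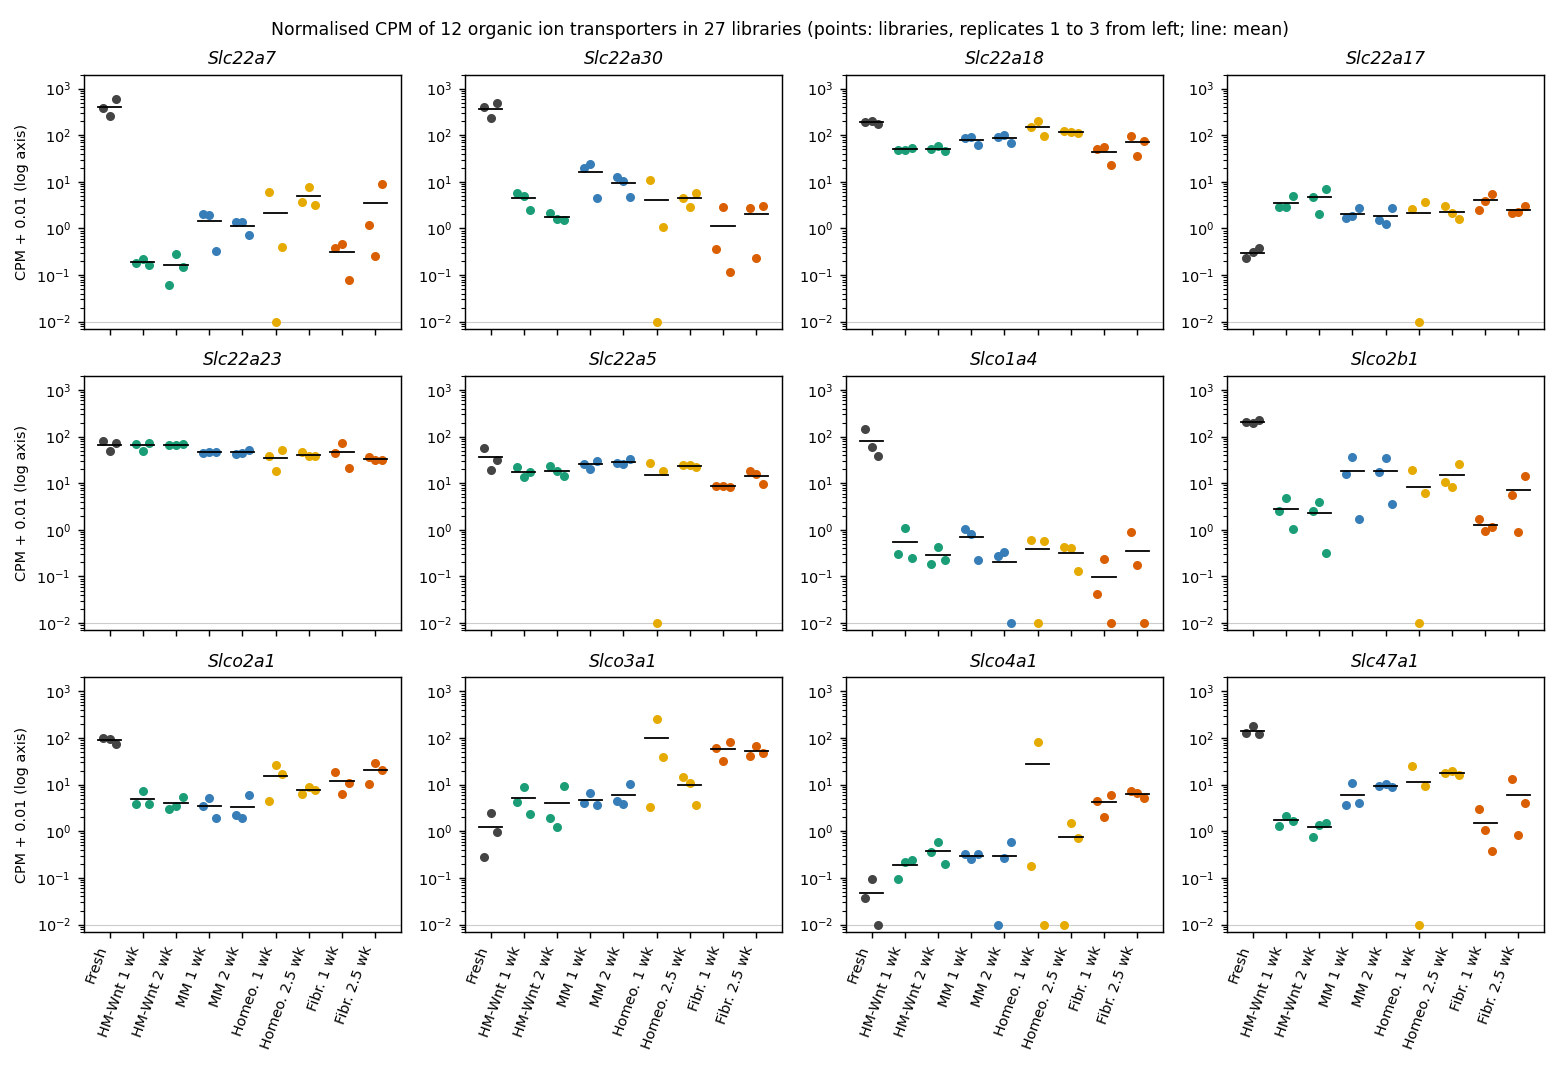
CPM plus 0.01, on a log axis, of 12 members in 27 libraries, 1 point per library and a line at the mean of each of the 9 conditions. Slc22a7, Slc22a30, Slco1a4, Slco2b1 and Slc47a1 are lower in every HepOrg library than in every fresh one, Slc22a17 is higher in every HepOrg library than in every fresh one, and the points on the grey line at 0.01 are libraries without a count.

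The carnitine carrier OCTN2, encoded by Slc22a5, was at 57.0, 19.2 and 31.6 CPM in fresh cells and at 13.3 to 33.2 CPM over the HepOrgs, with overlap. It was called lower in HM-Wnt only, at log2 fold changes of -1.04 ± 0.33 and -0.96 ± 0.33 (edgeR adjusted p = 0.0170 and 0.0242), against -0.52 and -0.34 in MM, which did not pass. Both calls were lost without replicate 1 of the fresh cells, where the log2 fold changes were -0.548 and -0.476 (edgeR adjusted p = 0.139 and 0.193), and without replicate 2 or 3 of the HM-Wnt group compared (edgeR adjusted p from 0.0513 to 0.101). Both were also lost in limma on log2(TPM + 1) and log2(TPM + 0.1), on TPM without composition scaling, with differences of -0.35 and -0.41 at 1 week and -0.053 and -0.044 at 2 weeks. The other members of this group had a mean under 1 TPM in fresh cells and in each HepOrg group. Slc22a15 had 302 to 431 counts in fresh cells and 69 to 220 in HepOrgs and was lower in all 4 comparisons. Slc22a4, the ergothioneine transporter, had 174, 101 and 182 counts in fresh cells and 3 to 134 in HepOrgs and was called lower in all but MM at 1 week, and Slc22a21, with 76, 8 and 43 counts in fresh cells, was called lower in HM-Wnt at 1 week, a call lost without any 1 of 5 of the 6 libraries compared (all but fresh replicate 2).

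Of the other Slc22 genes, Slc22a18 lies in an imprinted domain of chromosome 7 (chr7:143027466-143053072, plus strand). It was at 190, 206.5 and 174 CPM in fresh cells, 45.4 to 59.9 in HM-Wnt and 60.1 to 99.1 in MM. The 3 sets did not overlap, and the log2 fold change was -1.96, -1.90, -1.26 and -1.17 (SE 0.20) with edgeR adjusted p from 6.26e-06 to 0.00047. Slc22a17, which encodes the lipocalin-2 receptor, went the other way, from 0.217, 0.298 and 0.365 CPM to 2.08 to 7.10 in HM-Wnt and 1.24 to 2.72 in MM, and rose by log2 fold changes of 3.36 ± 0.49, 3.75 ± 0.50, 2.60 ± 0.47 and 2.42 ± 0.47 (edgeR adjusted p from 4.34e-05 to 0.00132). Both MM calls were lost in the fit of all 27 libraries (edgeR adjusted p = 0.0656 and 0.0924). Slc22a23 was at 49.6 to 78.7 CPM in fresh cells, 49.1 to 73.5 in HM-Wnt and 42.0 to 50.9 in MM and was called lower in MM only (log2 fold change -0.57 ± 0.18 at both times, edgeR adjusted p = 0.0208 and 0.0206). Both calls were lost without fresh replicate 1 or 3 (edgeR adjusted p from 0.0885 to 0.108) and without MM replicate 1 or 2 (0.0549 to 0.0756), that at 1 week also without MM replicate 3 (0.0562), and on TPM without composition scaling the sign of the 1-week value turned. Slc22a14, at 45 to 91 counts in fresh cells and 17 to 59 in HepOrgs, was lower in all 4 comparisons under 1 TPM. Its TPM is computed with a length 9.35 times its annotated span, and its calls in MM were lost without fresh replicate 1 or 3 or without MM replicate 1 or 3, at 2 weeks also without replicate 2 of either group.

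The OATPs called higher had a mean under 1 TPM in both groups. Slco3a1 had 10, 59 and 31 counts in fresh cells and 48 to 366 in HepOrgs and was called higher in MM at 2 weeks, a call lost without fresh replicate 1 or 3 or any of the 3 MM libraries. Slco4a1 had 1, 2 and 0 counts in fresh cells and 14, 23 and 7 in HM-Wnt at 2 weeks, where it was called higher, at a ratio of rates of 11.7 with a counting interval of 3.76 to 59.1, and the call was lost without fresh replicate 1 or 3 or HM-Wnt replicate 1 or 2. Slco5a1 had no count in fresh cells, and 13, 5 and 4 counts in HM-Wnt at 1 week and 5, 13 and 25 at 2 weeks, which is at least 6.52-fold and at least 11.5-fold higher by the same floor. The 1-week call of Slco5a1 was lost without fresh replicate 1 or 3 or HM-Wnt replicate 1. Slco1a6, at 207, 7 and 133 counts in fresh cells and 20 to 104 in HepOrgs, was called lower in MM at 2 weeks, a call lost without any 1 of 5 of the 6 libraries (all but fresh replicate 2). Slco1c1, the thyroxine carrier of the blood-brain barrier, had 41, 3 and 202 counts in fresh cells and at most 6 in HepOrgs and was not tested.

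A second question is what MM, the medium also used for the assembloids, does to the set. Over both times, 7 of 23 tested members were higher and 2 lower in MM than in HM-Wnt (11.5% and 10.0% of 12989 genes), with a median log2 fold change of 0.24 against -0.02 over all genes. At 1 week 1 was higher and 0 lower (1.76% and 1.22% of all genes, 2.98% in either direction), and at 2 weeks 4 were higher and 1 lower (6.84% and 4.61%). The labels do not say what the replicate numbers mean, but in this set of 12 libraries same-numbered ones deviated together. The number was therefore also used as a block, a choice made from these same data. With it the counts were 6 and 0 at 1 week (5.62% and 3.86% of all genes) and 6 and 2 at 2 weeks (11.0% and 8.60%). Over both times they were 8 and 3 (15.2% and 13.8%). Slc22a7 and Slc22a29 passed the count filter here only through MM libraries. The direction of their calls was thus set by the filter, with and without the block, and they are included in these counts.

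Slc47a1 rose by a log2 fold change of 2.38 ± 0.30 over both times (edgeR adjusted p = 0.000543), by 1.83 ± 0.42 at 1 week and by 2.93 ± 0.44 at 2 weeks (edgeR adjusted p = 0.0420 and 0.00271). The 1-week call was lost without any 1 of the 3 HM-Wnt libraries or MM replicate 1 or 2, with an adjusted p of 0.0724 to 0.121. Slc22a30 rose by 2.12 ± 0.40 and Slco2b1 by 2.88 ± 0.79 over both times (edgeR adjusted p = 0.00454 and 0.0244). Slc22a7, whose direction was set by the count filter, was higher by 2.62 ± 0.47 (edgeR adjusted p = 0.00343). Slc22a18 rose by 0.71 ± 0.14 (edgeR adjusted p = 0.00576) and Slc22a5 by 0.57 ± 0.17 (edgeR adjusted p = 0.0333). The call of Slc22a5 was lost without HM-Wnt replicate 2 or 3 at either time, MM replicate 1 or 3 at 1 week, or any of the 3 MM libraries at 2 weeks (edgeR adjusted p from 0.0552 to 0.0796). Slc22a7 reached at most 2.02 CPM and Slc47a1 at most 10.8 CPM in MM. With the block, Slc22a7, Slc22a30, Slco2b1 and Slc22a18 also passed at 1 week, with log2 fold changes of 2.47 ± 0.60, 1.71 ± 0.34, 2.17 ± 0.37 and 0.65 ± 0.16 (edgeR adjusted p = 0.0333, 0.0168, 0.00893 and 0.0390). For Slco2b1 the block cut the standard error over both times from 0.79 to 0.26. Leaving out 1 of 5 libraries in turn ended the unblocked call of Slco2b1 over both times, namely HM-Wnt replicates 1 and 3 at 1 week, HM-Wnt replicate 1 at 2 weeks, and MM replicate 2 at either time. Its adjusted p ranged from 0.000101 to 0.184 over all alternatives.

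Lower in MM were Slc22a17, by -1.04 ± 0.32, and Slc22a23, by -0.52 ± 0.11 (edgeR adjusted p = 0.0375 and 0.0081). The call of Slc22a17 was lost without HM-Wnt replicate 3 at 1 week, HM-Wnt replicate 1 or 3 at 2 weeks, or MM replicate 1 or 2 at either time (edgeR adjusted p from 0.072 to 0.0944). Under 1 TPM, Slc22a29 was called higher, with 197, 97 and 44 counts in MM at 1 week and 53, 17 and 50 at 2 weeks against 0 to 52 in HM-Wnt. It passed the count filter only through MM libraries, which set the direction of this call. That call was lost without HM-Wnt replicate 2 at 1 week, HM-Wnt replicate 2 or 3 at 2 weeks, MM replicate 1 or 2 at 1 week, or MM replicate 1 at 2 weeks (edgeR adjusted p from 0.0532 to 0.0718). With the block, also under 1 TPM, Slc22a4 was called higher over both times and at 1 week, with 48, 41 and 134 counts in MM against 7, 3 and 19, but not at 2 weeks, with 23, 13 and 62 against 30, 14 and 51, and Slco1a6 was called lower over both times only. For time in culture the counts were 0 of 23 for 2 weeks against 1 week in HM-Wnt, in MM, and for the difference between these changes, by edgeR with and without the block and by DESeq2, and 0.0154% of all genes were called in MM and 0% in the others by edgeR without the block. At an unadjusted p under 0.05 there were 4, 1 and 1 members without the block.

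**Figure D3:**
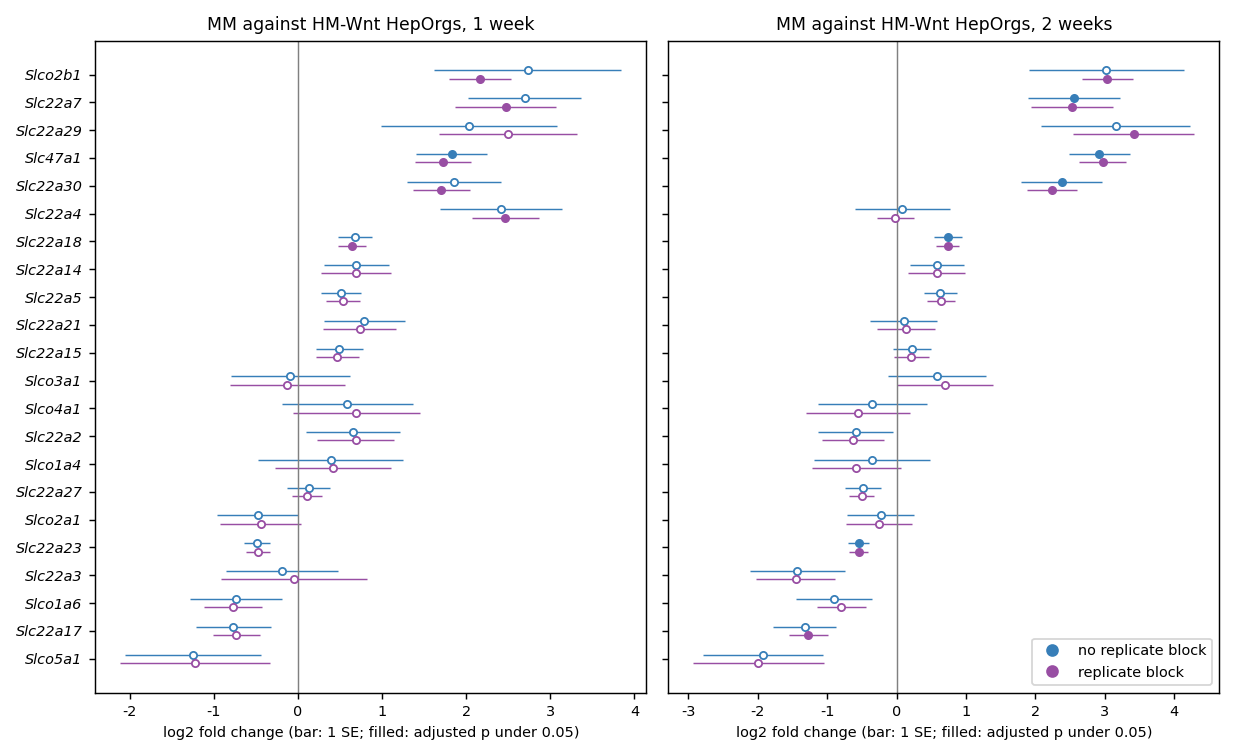
Log2 fold change of tested members in MM against HM-Wnt HepOrgs at 1 week (left) and 2 weeks (right), from edgeR without and with the replicate number as a block. Bars are 1 approximate standard error and filled points have an adjusted p under 0.05. Slco2b1, Slc22a7, Slc47a1 and Slc22a30 lie to the right at both times, and the bars of Slco2b1 are shorter with the block.

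Other genes of bile formation also differed between the media. Of 17 partner transporters, such as the bile salt carriers and canalicular pumps, 16 were tested. In MM, 6 were higher and 1 lower over both times, over and under the shares of all genes given above. Slc10a1, which takes bile salts up from blood, rose by 2.43 ± 0.49 and Abcb11, the bile salt export pump, by 2.13 ± 0.50 (edgeR adjusted p = 0.00606 and 0.0119). Against fresh cells 8, 7, 7 and 7 partners were lower and 3, 4, 3 and 3 higher in the 4 comparisons. In each, the lower partners were a larger share than that of all genes given above, and the higher ones a smaller share. Slc10a1 fell from 898, 1013 and 943 CPM to 5.53 to 51.2 CPM in HM-Wnt and 44.2 to 164 CPM in MM, a log2 fold change of -4.95, -5.79, -3.00 and -2.87 (edgeR adjusted p from 4.02e-05 to 0.00401). Abcc4, a pump on the blood side that is known to rise in cholestasis, went from 0.462, 4.01 and 0.881 CPM to 12.4 to 122 CPM in HepOrgs and rose by 4.71, 5.33, 4.19 and 4.15 (edgeR adjusted p from 0.00039 to 0.00244). The 9 hepatocyte markers as a whole were not called in 1 direction, with 3 called higher and 1 lower over both times.

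The regulators are 14 genes for transcription factors and nuclear receptors known to control hepatic transporters. In the 4 comparisons with fresh cells, 12, 9, 8 and 7 of them were lower, and 2 were higher in each. The lower ones were a larger share than that of all genes given above, and the higher ones a smaller share. Nr0b2, the bile acid induced repressor SHP, had log2 fold changes of -6.40, -6.73, -3.93 and -2.91, and Nr1i3, the xenobiotic receptor CAR, of -4.11, -4.16, -2.26 and -3.29. Hnf4a, the master hepatocyte factor, had -1.05, -1.01, -1.07 and -0.73. Ahr, the aryl hydrocarbon receptor, rose from 13.7 to 31.3 CPM in fresh cells to 100.5 to 339 CPM in HepOrgs, by 3.16, 3.59, 2.52 and 2.15. Over both times in MM, 6 regulators were higher and 1 lower than in HM-Wnt, over and under the shares of all genes given above. Nr0b2 was at 3.14 ± 0.33, Nr1h4, the bile acid receptor FXR, at 1.70 ± 0.31, and Ahr at -1.04 ± 0.12 (edgeR adjusted p = 0.000209, 0.00343 and 0.000363). Their part in the levels of the transporters was not tested.

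The third set of comparisons asks what happens to the transporters when HepOrgs are combined with cholangiocytes and few or many mesenchymal cells. With all libraries in the fit, none of the 26 tested members passed in any of the 6 assembloid comparisons by edgeR. The background was 0% of genes in 5 of them and, for fibrotic-like assembloids against MM HepOrgs, 0.361% higher and 0.389% lower (0.751% in either direction). At an unadjusted p under 0.05 there were 2 members for fibrotic-like against homeostatic assembloids at 1 week, 0 at 2.5 weeks, 2 and 0 for 2.5 weeks against 1 week in homeostatic and fibrotic-like ones, 6 for homeostatic assembloids against MM HepOrgs and 8 for fibrotic-like ones. DESeq2 called 1 lower in the first of these (0.948% of all genes), 3 higher in the fifth (3.60%) and 2 higher and 4 lower in the last (7.28% and 4.01%), and 0 in the others. Without replicate 2 of the homeostatic assembloids at 1 week, edgeR called 4 higher and 6 lower of 28 in fibrotic-like assembloids against MM HepOrgs at 1 week (18.2% and 16.5% of all genes), 1 lower of 27 in fibrotic-like against homeostatic assembloids at 1 week (4.87%), and 0 in the others. That library is in neither group of the comparison of fibrotic-like assembloids with MM HepOrgs, and it entered there only through the shared estimate of the spread and the set of genes tested.

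Slco2b1 was at 1.67, 0.922 and 1.13 CPM in fibrotic-like assembloids at 1 week against 1.72 to 37.3 CPM in MM HepOrgs of the same age and Slc22a30 at 0.354, 2.83 and 0.107 CPM against 4.42 to 23.5, and they fell by 3.87 ± 1.13 and 3.85 ± 1.20 without that library (edgeR adjusted p = 0.0189 and 0.0247). With all libraries their log2 fold changes were -3.85 and -3.82 (edgeR adjusted p = 0.194 and 0.204). On TPM without composition scaling the groups overlapped for Slco2b1, at 0.355, 0.197 and 0.3634 against 1.811, 4.558 and 0.2631, but not for Slc22a30. Slc22a5 was at 8.57, 8.85 and 8.24 CPM against 20.7 to 29.4 and fell by 1.59 ± 0.22 without that library (edgeR adjusted p = 0.000866), against a log2 fold change of -1.57 ± 1.14 with it (0.486). On TPM without composition scaling the groups overlapped, at 3.587, 3.729 and 5.252 against 5.841, 4.996 and 8.889. The TMM factors were 1.471, 1.421 and 1.953 against 0.8671, 0.898 and 1.086, so the gap in CPM depends on this scaling. Slc22a5 was also the member called lower against homeostatic assembloids at 1 week, at -1.41 ± 0.26 without that library (edgeR adjusted p = 0.0408) and -0.82 ± 1.39 with it (0.838). There too the TPM overlapped, with 5.027 and 5.536 in homeostatic replicates 1 and 3. Slc22a2, with 1, 4 and 2 counts against 5 to 21, and Slc22a29, with 24, 9 and 0 against 44 to 197, were called lower under 1 TPM in the fit without that library. Slc22a2 passed the count filter of that fit only through MM HepOrgs at 1 week. The direction of its call was thus set by the filter, and it is included in the counts above.

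Hepatocyte markers were lower in the same libraries. They summed to 21926, 25950 and 4759 CPM in fibrotic-like assembloids at 1 week, in replicates 1 to 3, and to 56584, 13866 and 66316 CPM at 2.5 weeks, against 29315 to 73536 CPM in MM HepOrgs at 1 week, and without the library that stood apart 3 of the 9 markers were called lower and 0 higher, against 0 in either direction with it. Replicate 3 at 1 week and replicate 2 at 2.5 weeks, the lowest in these markers, were also the lowest of their groups in Slc47a1, Slc22a30 and Slc22a7. The share of hepatocytes and the level per hepatocyte cannot be told apart here.

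The 4 members called higher without that library, a smaller share of the members tested than the 18.2% of all genes, were OATPs. Slco3a1, a broadly expressed prostaglandin and thyroid hormone carrier, was at 61.9, 32.5 and 82.2 CPM in fibrotic-like assembloids at 1 week, 41.8, 66.9 and 47.3 CPM at 2.5 weeks and 3.62 to 6.55 CPM in MM HepOrgs at 1 week. Slco4a1 was at 4.45, 2.04 and 5.92 CPM and 7.17, 6.71 and 5.12 CPM against 0.243 to 0.320 CPM. Slco2a1 was at 18.3, 6.40 and 10.9 CPM at 1 week against 1.96 to 5.06 CPM. For none of these 3 genes did the fibrotic-like libraries at 1 week overlap with the MM HepOrgs, and without the library that stood apart the genes rose by 3.60 ± 0.77, 3.63 ± 1.27 and 1.72 ± 0.59 (edgeR adjusted p = 0.0043, 0.0402 and 0.037). With all libraries the log2 fold changes were 3.61 ± 1.04, 3.64 ± 2.05 and 1.74 ± 0.67 (edgeR adjusted p = 0.0822, 0.338 and 0.157), and none passed. Slco5a1, with 229, 82 and 315 counts against 1, 6 and 1, was called higher under 1 TPM in the same fit. Mesenchymal markers summed to 2623, 6496 and 309 CPM in these 3 libraries and to 107 to 272 CPM in MM HepOrgs, and all 8 were called higher without that library and 0 with it. Within the group, replicate 3 was the lowest in mesenchymal, hepatocyte and cholangiocyte markers and had the most Slco3a1, Slco4a1 and Slco5a1. Its cholangiocyte markers summed to 7280 CPM, against 10379 and 10359 CPM in replicates 1 and 2. The part of the added cells in these levels was not tested.

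**Figure D4:**
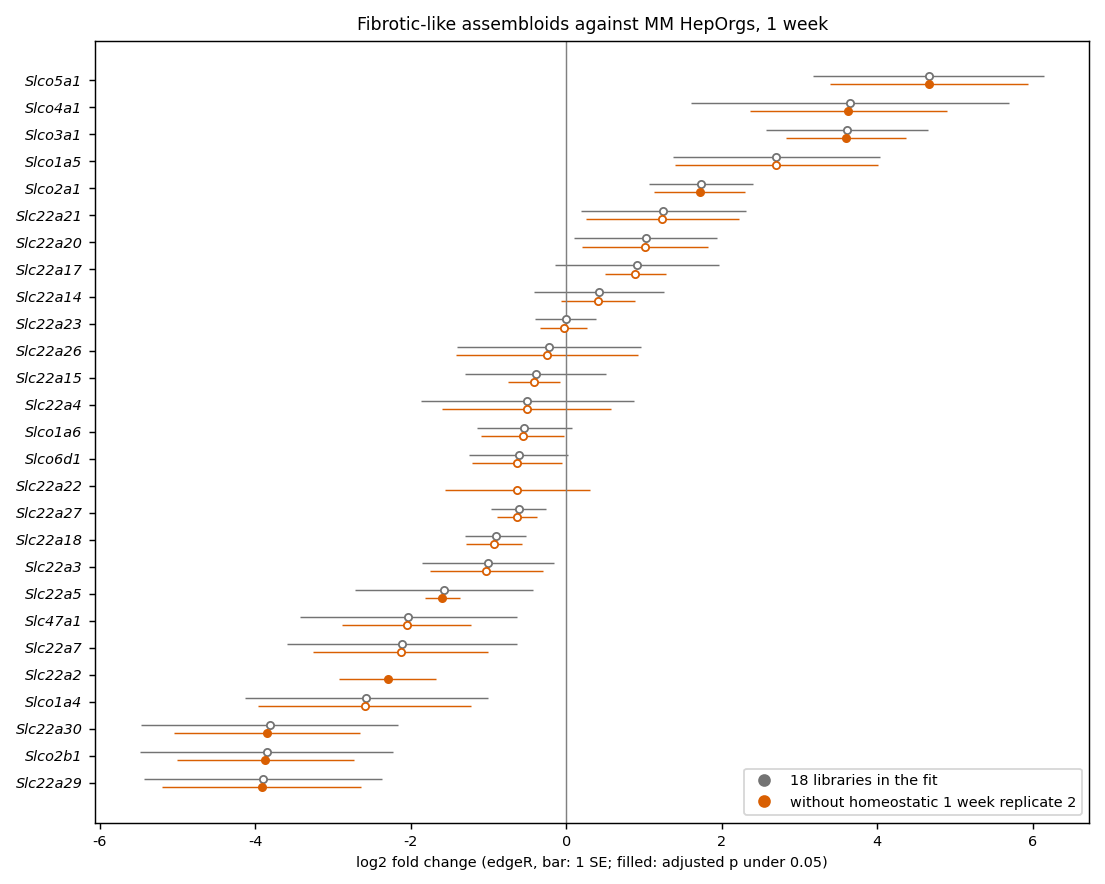
Log2 fold change of the tested members in fibrotic-like assembloids against MM HepOrgs at 1 week, from edgeR, with 18 libraries in the fit (grey) and without replicate 2 of the homeostatic assembloids at 1 week (orange). Bars are 1 approximate standard error and filled points have an adjusted p under 0.05. The values hardly move between the fits, while only orange points are filled, among them Slco3a1, Slco4a1, Slco2a1, Slc22a5, Slc22a30 and Slco2b1.

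Replicate 2 of the homeostatic assembloids at 1 week had the highest level of Slco3a1, Slco4a1 and Slc22a14 in any library. Slco3a1 was at 253 CPM against 3.26 and 39.4 CPM in replicates 1 and 3, Slco4a1 at 83.3 against 0.170 and 0, and Slc22a14 at 19.7 against 1.08 and 1.92. Slco2a1 was at 25.8 CPM against 4.56 and 16.7. It held no count of Slc22a4, Slc22a5, Slc22a7, Slc22a17, Slc22a30, Slco2b1, Slco1a4 or Slc47a1. Slc22a18 was at 201 CPM there against 150 and 97.0 in the others. In the other 2 libraries of that group and the 3 at 2.5 weeks, Slc47a1 was at 9.15 to 25.6 CPM, Slc22a18 at 97.0 to 150 CPM and Slc22a7 at 0.395 to 7.72 CPM. Only the homeostatic assembloids of 1 week were compared with MM HepOrgs, where edgeR called none of the members and DESeq2 the 3 higher counted above.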

How the data were processed

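Counts were analysed as deposited. Per the study's methods, the authors isolated RNA with PicoPure, prepared libraries with SMARTseq2 and Nextera, aligned reads with STAR to GRCm39 and counted them per gene with featureCounts, which gave the deposited count table. The deposited TPM values are, within 2.91e-10, the counts divided by the table's gene length, which mostly spans introns as well. The kit does not mark strand. Of 37 columns, 10 matched no sample used here and were left out.

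Members and gene lists were chosen with earlier results of these data known. Levels are TMM-normalised CPM over the 27 libraries. Tests used edgeR 4.0.16 quasi-likelihood in R 4.3.3 (filterByExpr, minimum count 10, total 15, prior count 2), with Benjamini-Hochberg adjustment over all genes and a threshold of 0.05, in shared fits of fresh cells with HepOrgs (15 libraries), HepOrgs (12), assembloids (12), and MM HepOrgs with assembloids (18). Fold changes and tests are printed for members past the threshold with a mean of at least 1 TPM in either group. Members called below that are given by their counts, and members not called by their levels, except beside a parallel comparison in which they were called. Alternatives were DESeq2 1.42.0, limma 3.58.1 on log2(TPM + 1) and log2(TPM + 0.1), other scaling, filters and sets of libraries, single libraries left out and a replicate block. The steps were tested on simulated data. In the HepOrg fit, same-numbered libraries of different groups deviated together, at a correlation over 0.1, in 18 of 18 pairs (0.127 to 0.503). Of pairs with different numbers, 2 of 36 passed that limit (median -0.127, each group centred on its mean). The block rests on this pattern and not on the labels. In the other fits 19 of 30, 6 of 18 and 11 of 45 same-numbered pairs passed that limit. Of pairs with different numbers, 7 of 60, 5 of 36 and 18 of 90 did. The first of these fits, with fresh cells, includes the HepOrg pairs. Leaving out replicate 2 of the homeostatic assembloids at 1 week from comparisons that do not name its group was chosen after seeing the data. Each SE of an edgeR log2 fold change is approximate. It is the absolute log2 fold change, moderated by the prior count, over the square root of its F statistic in the shared fit. It is unreliable where the fold change is near 0. Intervals on ratios of counts are 95% and cover counting error only. The values of 1 member are not reported here, and it is left out of the plots. It stays in the counts of members.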

Additional observations from a re-analysis of the deposited data

How the results depend on the processing

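Of 253 counts of members under alternative settings, 209 stayed within 1.5 times the main count, 26 were lower and 18 higher, and of 1125 fold changes of called members 942 kept their call, 181 lost it and 2 reversed. Against fresh hepatocytes, 16, 16, 13 and 17 members passed in HM-Wnt at 1 and 2 weeks and MM at 1 and 2 weeks. Asking for 10 counts in every library gave 8, 9, 8 and 10, limma on log2(TPM + 1) and on log2(TPM + 0.1) gave 9 and 9 in the first and 9 and 9 in the last, and the fit of all 27 libraries gave 7 and 9 in MM. In limma, Slc22a23 in MM at 1 week reversed to 0.044 and 0.072 (pseudocounts 1 and 0.1). Leaving out 1 library gave 13 to 17, 14 to 20, 10 to 17 and 13 to 17. For MM against HM-Wnt, 1, 5 and 9 members passed at 1 week, 2 weeks and over both times. DESeq2 gave 6 and 8 at the single times, the replicate block 6 and 8 and over both times 11, limma 2 and 2 at 2 weeks and 5 and 5 over both times, all 27 libraries 0, 0 and 0, and only the groups compared 0 at 1 week. Leaving out 1 library gave 0 to 4, 1 to 5 and 6 to 8. Among assembloids the main count was 0. Fibrotic-like against homeostatic at 1 week gave 1 with DESeq2, 1 with all 27 libraries and 0 to 1 with 1 library left out, and at 2.5 weeks 1 with only the groups compared. Homeostatic assembloids against MM HepOrgs gave 3 with DESeq2 and 0 to 3 with 1 library left out, 3 without homeostatic replicate 1. Fibrotic-like assembloids against MM HepOrgs gave 6 with DESeq2, 1 with 10 counts in every library, 2 and 2 with limma, 3 with all 27 libraries, 8 with only the groups compared, and 0 to 10 with 1 library left out, 10 without homeostatic replicate 2. The cause of these changes was not tested. Near-identical copies, 3 libraries a group and low counts under 1 TPM limit the single-gene values.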
